A study of Mus musculus with 15 samples.

Results

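The genes described here encode the machinery of mitosis and chromosome segregation: the spindle checkpoint, mitotic kinesins, centromere and kinetochore proteins, the chromosomal passenger complex, mitotic kinases, mitotic cyclins with Cdk1, the anaphase machinery, proteins of mitotic chromosomes, proteins of spindle assembly and cytokinesis, and a pair of transcription factors that act on such genes. They were taken from a list of 52 symbols and are ordered here by role. Of these, 51 had a probe set annotated to that single symbol and were measured, out of 18193 such genes on the array, and each gene was represented by its probe set of highest mean log2 intensity over the 15 arrays. Ccnb1 (cyclin B1) was not analysed here, since no probe set carried its symbol alone.

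Transcripts of 5 sorted mammary epithelial populations from adult C57BL/6 female mice were measured on Affymetrix mouse whole-genome arrays, 3 arrays for each population. AL, the alveolar luminal cells, were sorted at midgestation as lineage-negative YFP+ cells from females of the genotype Wap-Cre;R26Y. ALP, named alveolar luminal stem/progenitor cells, were the cells with the same mark in virgin females of that genotype. In these animals Cre under the promoter of a milk protein gene, Wap, recombines a conditional YFP reporter (R26Y), and the mark is kept by all descendants of a marked cell, so YFP records past and not only present Cre activity. The 3 other populations came from virgin wild-type females: MaSC are the Lin-CD24+CD29hi basal cells that hold the mammary stem cells, LP are luminal progenitors labelled Lin-CD24hiCD29+CD61+ (low for CD29 in the study's methods), and ML are mature luminal cells, the CD61- counterpart of LP. MaSC, LP and ML were sorted from the same 3 cell suspensions, while separate animals are not stated for the AL or the ALP replicates, so the p-values rest on the spread among these arrays, part of which may be technical. AL thus differed from MaSC, LP and ML in genotype as well as in pregnancy, and only ALP shared its genotype.

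A dividing cell condenses its chromosomes, attaches each one to spindle microtubules through its kinetochores, and separates the sister chromatids only after the spindle checkpoint is satisfied. The anaphase-promoting complex, a ubiquitin ligase, then destroys securin and the mitotic cyclins, which frees separase to cut cohesin and lets Cdk1 activity fall. Most of these genes are transcribed in G2 and M phase and are held down in resting cells, and in the mammary gland the alveolar epithelium expands by cell division during pregnancy.

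Median intensity per array ran over 137 to 209.9, on the linear scale of the deposited dChip values. The luminal markers Krt8, Krt18, Krt19 and Epcam were bright in every array, with summed intensities of 57650 to 59640 in AL, 60480 to 61490 in ALP, 50570 to 58810 in MaSC, 62000 to 63610 in the LP arrays and 62840 to 63970 in ML, so basal MaSC carried them too. Milk protein genes summed to 49460 to 57670 in AL, 16050 to 18480 in ALP, 9481 to 13680 in MaSC, 17470 to 17760 in the LP arrays and 9720 to 11960 in ML. Csn3 made up most of each virgin sum. Its mean intensity was 16261 in AL, 15888 in ALP, 11407 in MaSC, 17076 in LP and 10975 in ML. Csn2, Csn1s1 and Wap had means of 14707, 15650 and 6059 in AL. Their highest virgin means were 573 in ALP, 413 in ALP and 111 in LP, in the same order. ALP replicate 3 stood apart from the other arrays and carried more transcripts of other cell types. Its summed intensity for 8 immune markers was 51510, against 2189 and 2776 in ALP replicates 1 and 2. For basal markers it was 26670, against 7260 and 6095, for endothelial markers 14320, against 2155 and 3522, and for fibroblast markers 66270, against 35880 and 37330. MaSC replicate 1 also carried more luminal transcripts than MaSC replicates 2 and 3. Its sum for 4 mature luminal markers was 19490, against 13960 and 5781, and for 4 luminal progenitor markers 11370, against 5626 and 5175. It was the highest MaSC array for 45 of the 51 mitosis genes, but the share of all genes highest in it was not counted. Whether this goes with the luminal transcripts was not tested. The sample numbers of the ALP arrays were later than those of the other populations, and a batch confined to ALP cannot be told apart from that population.

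Almost the whole set was higher in AL than in each virgin population. Of the 51 genes measured, 47 rose and 0 fell in AL relative to ALP, 49 rose and 0 fell relative to MaSC, 47 rose and 1 fell relative to LP, and 46 rose and 1 fell relative to ML (limma across all genes, adjusted p under 0.05). Among all 18193 genes, 12.8% were called higher in AL than in ALP, 23% higher than in MaSC, 15.2% higher than in LP and 20.9% higher than in ML. Genes called lower made up 15.7%, 20.9%, 17.5% and 18.4% of all genes in the same order. The median difference over the 51 genes was 3.26 on the log2 scale against ALP, 3.62 against MaSC, 2.89 against LP and 2.99 against ML, which corresponds to 9.6-, 12.3-, 7.42- and 7.93-fold, while the median over all genes lay between -0.04 and 0.04. Only 15 to 43 of the 51 genes exceeded the array median in single virgin arrays, so folds against the dimmer levels are imprecise. These 4 comparisons share the AL arrays and are not independent of each other. In bulk RNA, fewer cells of a kind and less RNA per cell cannot be told apart, so a level here may reflect the share of dividing cells, the transcript content of each, or both.

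**Figure D1:**
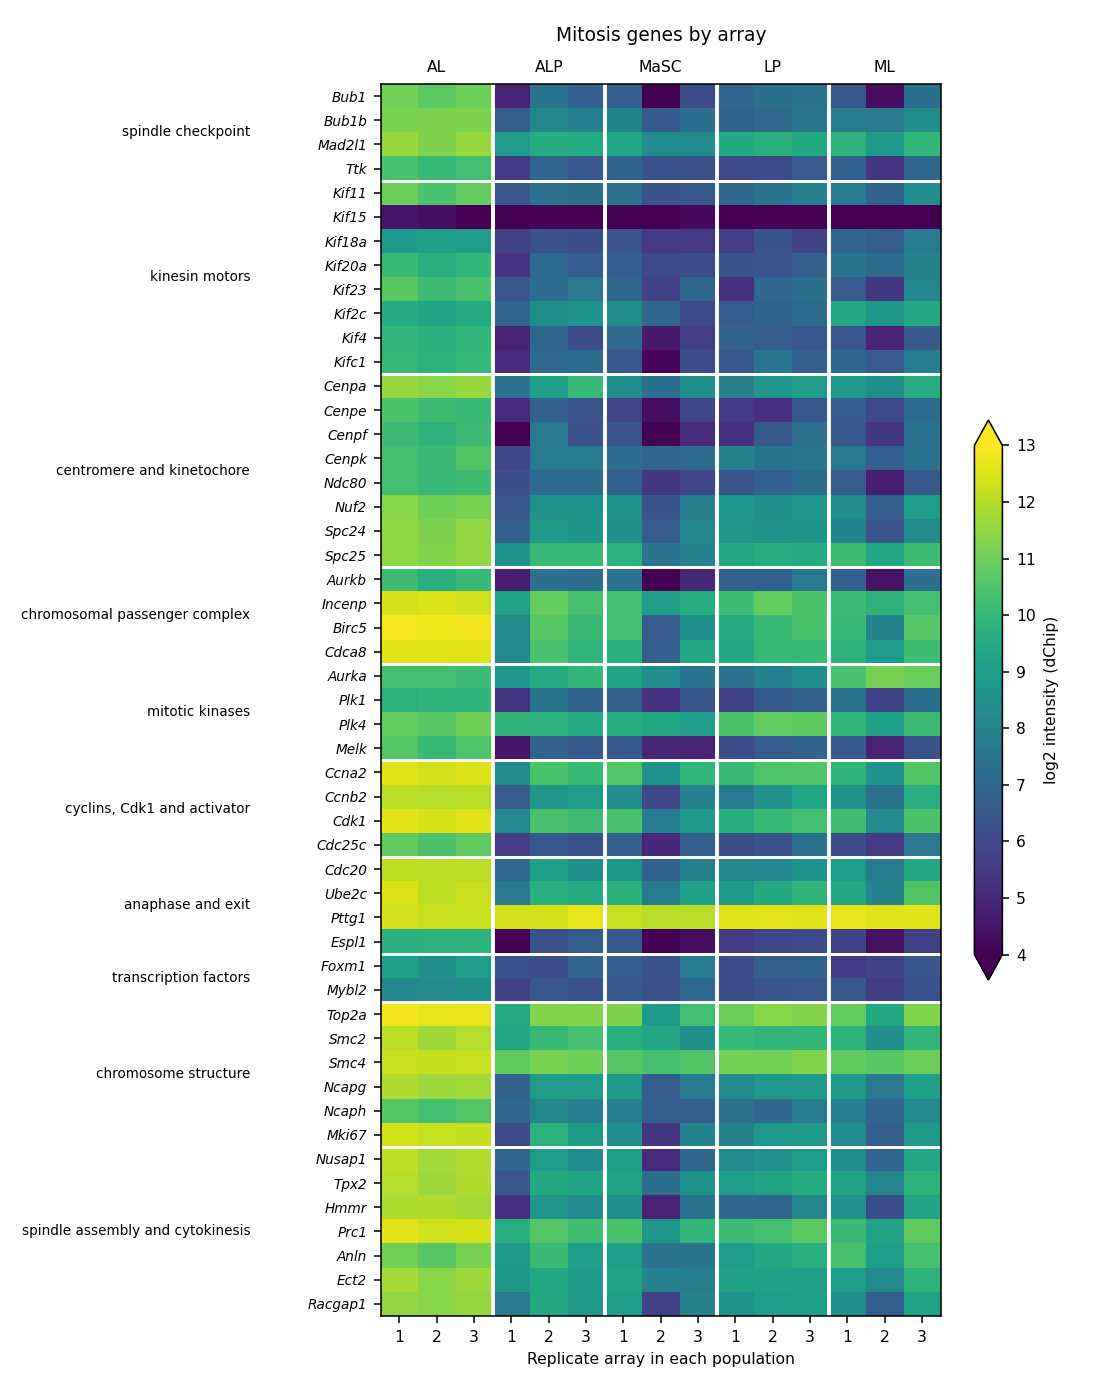
Log2 intensity of the 51 measured genes in each of the 15 arrays, 1 gene per line grouped by role, with populations from left to right AL, ALP, MaSC, LP and ML and colour giving log2 of the dChip intensity. The 3 AL columns are bright for nearly every gene, Pttg1 is bright in all 15 arrays and Kif15 is dim in all of them.

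Separation between arrays was as broad as these counts. For 46 of the 51 genes each of the 3 AL arrays lay above all 12 virgin arrays, a pattern found in 9.38% of all genes. The exceptions were Pttg1, Aurka, Kif2c, Plk4 and Kif15. AL had the highest mean of the 5 populations for 49 genes and ML for the other 2, Aurka and Pttg1. The lowest mean was that of MaSC for 39 genes. Differences of at least 2-fold that also passed the test numbered 47 against ALP, 49 against MaSC, 47 against LP and 46 against ML, where 5.33%, 12.1%, 7.65% and 11.5% of all genes did so. At least 8-fold were 29, 37, 24 and 24 of the genes in the same order, but the share of all genes at that size was not counted. Left out of the fit in turn, no array brought the number called below 43 in any of these comparisons, and without ALP replicate 3 there were 48 called between AL and ALP.

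**Figure D2:**
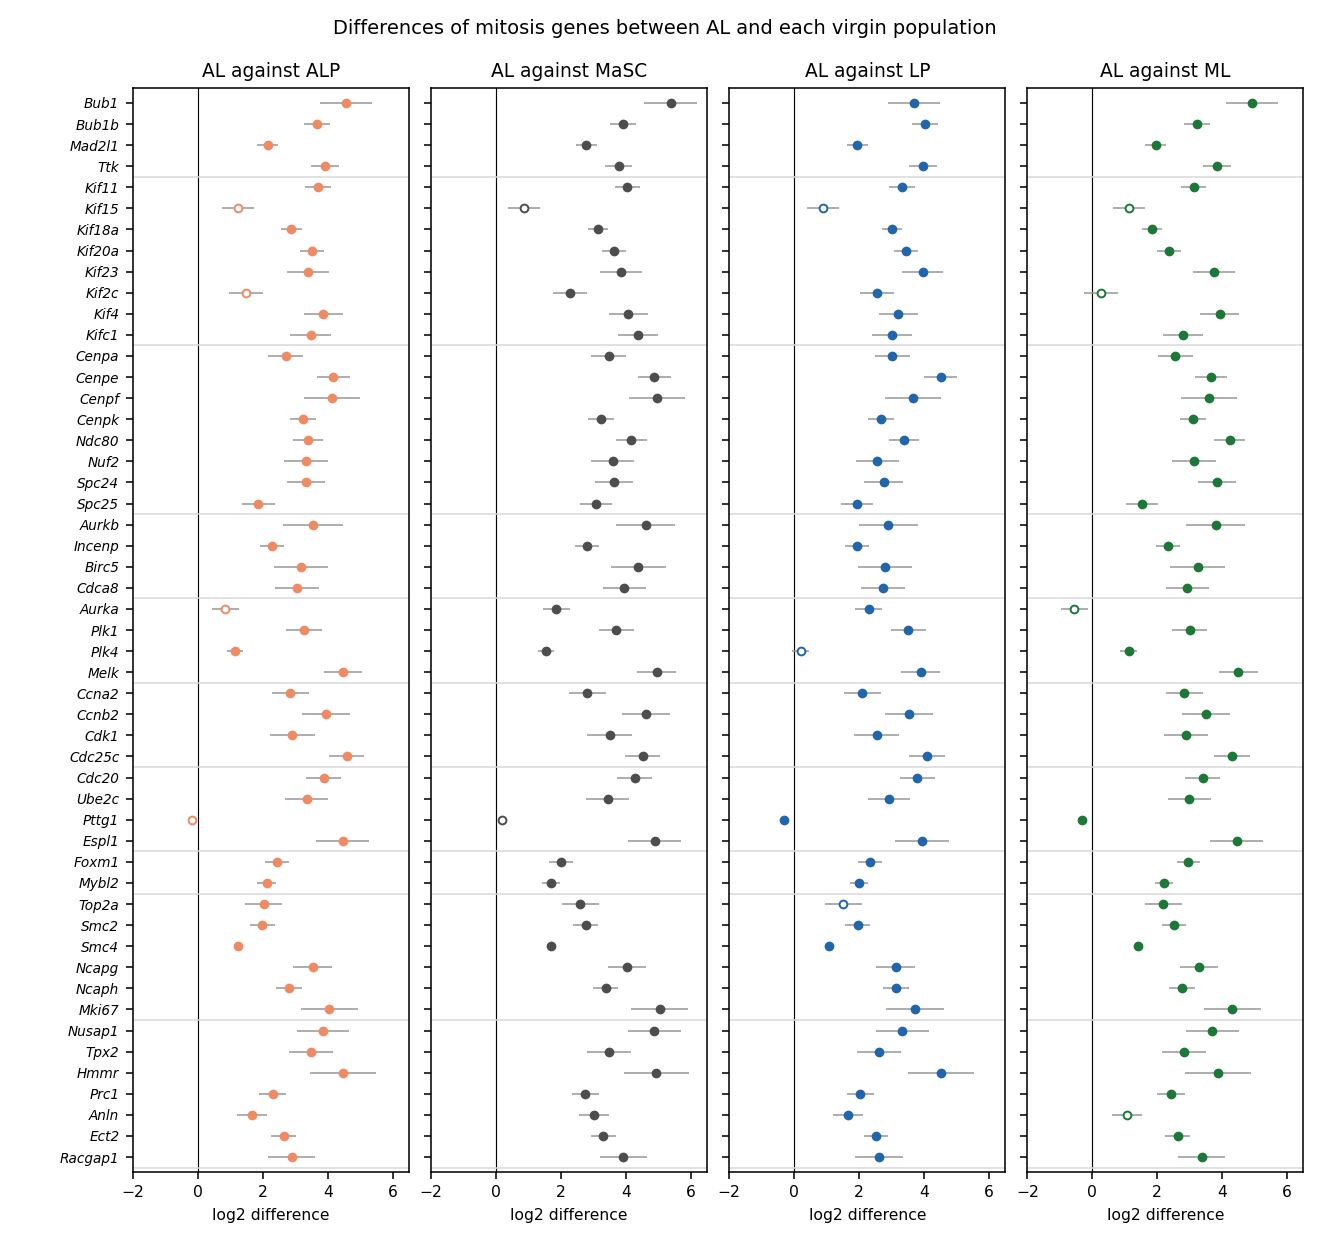
Fitted log2 difference of each of the 51 genes in AL against ALP, MaSC, LP and ML, with bars of 1 standard error of the fit, filled circles for genes with an adjusted p under 0.05 and open circles for the others. Nearly all points lie right of 0, most between 2 and 5, and Pttg1 lies close to 0 in all 4 panels.

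The 4 spindle checkpoint genes rose in all 4 comparisons. Bub1b, which encodes the checkpoint kinase BubR1, read 2314, 2413 and 2371 in the 3 AL arrays, 100.5, 271 and 237 in ALP, 267, 93.2 and 154 in MaSC, 119, 138 and 184 in the LP arrays and 228, 202 and 348 in ML. Its lowest AL array was several times above its highest virgin array. Relative to LP the difference was 4.03 (SE 0.40, adjusted p = 6.79e-06), and relative to ALP it was 3.67 (SE 0.40, adjusted p = 1.82e-05). Mad2l1 (Mad2), which binds and inhibits Cdc20 while kinetochores are unattached, had the smallest difference of the group, with 3093, 2464 and 3143 in AL, 487, 759 and 737 in ALP and 727, 829.6 and 699.8 in LP. AL and LP differed by 1.94 (SE 0.32, adjusted p = 0.000401). Bub1 and Ttk (Mps1), the kinases that recruit checkpoint proteins to kinetochores, gave differences from LP of 3.69 and 3.98 on the log2 scale.

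Of 8 kinesin motors, 6 rose relative to ALP, 7 relative to MaSC, 7 relative to LP and 6 relative to ML. Kif11 (Eg5), which slides antiparallel microtubules apart to make the spindle bipolar, read 2025, 1404 and 1824 in AL, 87.7, 167 and 162 in ALP, 163, 79.6 and 88.5 in MaSC, 129, 173 and 231 in the LP arrays and 209, 117 and 321 in ML. Kif23, the motor subunit of centralspindlin, which acts in cytokinesis, had the widest separation from LP, at 1651, 1193 and 1412 in AL and 37.0, 126 and 160.1 in LP, 3.95 (SE 0.64, adjusted p = 0.000364). Both genes were high in each AL array and low in each virgin array, with the ML replicates of Kif23 spread over 43.5 to 278. Kif18a, Kif20a, Kif4 and Kifc1 rose in AL in all 4 comparisons, with log2 differences from 1.83 for Kif18a against ML to 4.37 for Kifc1 against MaSC. The 2 remaining motors, Kif15 and Kif2c, are described with the exceptions.

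All 8 centromere and kinetochore genes rose in all 4 comparisons. Cenpa encodes the histone H3 variant that marks centromeres and read 3159, 2695 and 3096 in AL, 169.7, 537 and 1037 in ALP, 348, 156 and 359 in MaSC, 241, 409.6 and 501 in the LP arrays and 463, 354 and 785 in ML. Its highest virgin array was ALP replicate 3, the array with immune transcripts. Cenpe, a kinetochore motor that carries chromosomes to the spindle equator, read 1393, 1176 and 1099 in AL, 34.7, 108 and 82.6 in ALP, 58.7, 20.3 and 59.8 in MaSC, 45.6, 37.6 and 89.4 in the LP arrays and 98.9, 63.1 and 143 in ML. The Cenpe difference from LP was 4.51 (SE 0.50, adjusted p = 1.70e-05), and all 3 LP arrays of Cenpe lay below the array median, so its exact size is uncertain. Ndc80, Nuf2, Spc24 and Spc25 encode the subunits of the Ndc80 complex, the coupling between kinetochore and microtubule. Spc25 had the smallest differences of the group, with 2894, 2580.2 and 2966 in AL and 1178, 662 and 1188 in ML, 1.53 (SE 0.50, adjusted p = 0.0248). That call was lost when any 1 AL array or ML replicate 2 was left out (adjusted p = 0.0506 to 0.104), although each AL array lay above each ML array. Against ALP, at 1.86 (SE 0.50, adjusted p = 0.012), the call was lost without ALP replicate 1 (adjusted p = 0.0528).

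The chromosomal passenger complex corrects faulty attachments and then moves to the spindle midzone. Its 4 members rose together in each comparison. Birc5 (survivin) read 7572, 7165 and 7339.6 in AL, 299, 1629 and 1118 in ALP, 1265, 95.4 and 364 in MaSC, 769, 1096 and 1392 in the LP arrays and 1107, 263 and 1602 in ML. The AL arrays differed from each other by little, while the virgin arrays ranged over 95.4 to 1629. Incenp, the scaffold, read 5536, 5933 and 5179 in AL and 1168, 1861 and 1430.4 in LP, a difference of 1.92 (SE 0.37, adjusted p = 0.0012). Aurkb, the kinase of the complex, read 1152, 805 and 1091 in AL and 114, 110.0 and 197 in LP, a difference of 2.89 (SE 0.91, adjusted p = 0.0253). For Aurkb and Birc5 the call against LP did not hold with fewer arrays: it was lost without any one of AL replicates 1 and 3 and LP replicates 1 and 2 for Aurkb (adjusted p = 0.0687 to 0.0748), and without any one AL array or LP replicate 1 for Birc5 (adjusted p = 0.0502 to 0.0669). The Birc5 call against ALP, at 3.17 (SE 0.84, adjusted p = 0.0116), was lost without ALP replicate 1 (adjusted p = 0.0515). The fourth member, Cdca8 (borealin), differed by 2.74 from LP.

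The regulators of mitotic entry followed the same pattern. Cdk1, the kinase that drives entry into mitosis, read 6245, 5616 and 5979 in AL, 301, 1376 and 1202 in ALP, 1372, 230.4 and 455 in MaSC, 772, 1071 and 1284 in the LP arrays and 1209, 301 and 1430.2 in ML. All AL arrays stood far above the virgin arrays, whose lowest values were MaSC replicate 2, ALP replicate 1 and ML replicate 2. The fitted differences were 2.91 (SE 0.69, adjusted p = 0.00607) against ALP and 2.54 (SE 0.69, adjusted p = 0.0115) against LP. Ccna2 (cyclin A2), a Cdk1 and Cdk2 partner active from S phase into mitosis, read 6148, 5467 and 5898 in AL, 342, 1403 and 1103 in ALP and 1116, 1482 and 1522 in LP. Cdc25c, the phosphatase that activates Cdk1, had the widest gap of the group from ALP, LP and ML, with 1807, 1428 and 1786 in AL, 49.1, 89.7 and 77.3 in ALP and 70.9, 79.2 and 164 in LP. It differed by 4.10 (SE 0.55, adjusted p = 7.91e-05) from LP and by 4.57 (SE 0.55, adjusted p = 4.04e-05) from ALP. Ccnb2 (cyclin B2), the only B-type cyclin measured, differed by 3.54 from LP and by 4.62 from MaSC.

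The kinase Plk1, required for spindle assembly and many later steps, rose by 3.52 relative to LP on the log2 scale and by 3.26 relative to ALP. Melk, a kinase whose transcript marks proliferating cells, read 1530.3, 1081 and 1478 in AL, 22.7, 108 and 92.0 in ALP, 91.8, 31.3 and 28.9 in MaSC, 67.0, 98.5 and 113 in the LP arrays and 92.6, 29.2 and 79.7 in ML. Its virgin arrays all lay between 22.7 and 113, and AL differed from LP by 3.90 (SE 0.60, adjusted p = 0.000234). Aurka and Plk4 did not follow and are described below.

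At the exit from mitosis, Ube2c, the ubiquitin-conjugating enzyme of the anaphase-promoting complex, read 5716, 4556 and 4951 in AL, 198, 828 and 749 in ALP, 844, 211 and 567 in MaSC, 443, 710.0 and 953 in the LP arrays and 655, 262 and 1509 in ML. Espl1 (separase), the protease that cuts cohesin, read 838, 878 and 875 in AL, 7.96, 75.5 and 102 in ALP, 89.4, 14.2 and 19.8 in MaSC, 47.1, 59.7 and 63.3 in the LP arrays and 55.5, 21.1 and 53.5 in ML. Both genes were several times higher in every AL array than in any virgin array. The difference from LP was 2.92 (SE 0.66, adjusted p = 0.00364) for Ube2c and 3.94 (SE 0.82, adjusted p = 0.00224) for Espl1. Cdc20, the activator of the complex that the checkpoint holds back, differed by 3.79 from LP and by 3.87 from ALP. The substrate that connects them, Pttg1 (securin), was the only gene of the set to fall in any AL comparison.

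Foxm1 and Mybl2 (B-Myb) encode transcription factors that act on genes of G2 and M phase, and both rose in all 4 comparisons. Foxm1 read 561, 366 and 519 in AL, 77.9, 71.5 and 124 in ALP, 103, 78.2 and 203 in MaSC, 70.9, 108 and 110.1 in the LP arrays and 46.1, 58.1 and 84.2 in ML. Mybl2 read 278, 319 and 357 in AL, 57.0, 88.4 and 77.6 in ALP, 92.0, 75.9 and 134 in MaSC, 70.2, 83.2 and 87.3 in the LP arrays and 86.2, 48.1 and 76.7 in ML. For both genes MaSC replicate 3 was the highest virgin array. Relative to LP the differences were 2.33 (SE 0.36, adjusted p = 0.000268) for Foxm1 and 1.98 (SE 0.28, adjusted p = 0.000122) for Mybl2.

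Among proteins of mitotic chromosomes, 6 of 6 genes rose relative to ALP, MaSC and ML and 5 of 6 relative to LP. Mki67, the antigen Ki-67 that coats mitotic chromosomes and is used to count cycling cells, read 5443, 4903 and 4731 in AL, 66.4, 877 and 478 in ALP, 328, 41.2 and 262 in MaSC, 265, 447 and 469.7 in the LP arrays and 329, 107 and 459.8 in ML. AL differed by 4.05 (SE 0.88, adjusted p = 0.0036) from ALP and by 3.72 (SE 0.88, adjusted p = 0.00523) from LP. Smc4, a core subunit of condensin, had small but very even differences, with 4853, 4769 and 4814 in AL, 1795, 2330.4 and 2061 in ALP, 1639, 1329 and 1500.2 in MaSC, 2241, 2155 and 2495 in the LP arrays and 1773, 1625 and 2034 in ML. The Smc4 difference from LP, 1.07 (SE 0.12, adjusted p = 2.41e-05), came with one of the smallest standard errors of the set. Top2a, the topoisomerase that untangles sister chromatids, read 7259, 6468 and 6863 in AL, 748, 2552 and 2514 in ALP, 2460.3, 479 and 1243 in MaSC, 2014, 2705 and 2547 in the LP arrays and 1878, 724 and 2522 in ML. No Top2a value of AL overlapped a virgin one, but the difference from LP, 1.51 (SE 0.58, adjusted p = 0.0591), missed the threshold. The call against ALP was lost without ALP replicate 1, where the difference was 1.44 (adjusted p = 0.0746), and without AL replicate 1 (adjusted p = 0.0501). Smc2, Ncapg and Ncaph, the other condensin subunits, differed from LP by 1.95, 3.13 and 3.14.

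The 7 genes of spindle assembly and cytokinesis rose relative to ALP, MaSC and LP, and 6 of them relative to ML. Hmmr, a microtubule-binding protein of the spindle, had a log2 difference from LP of 4.52 (SE 1.01, adjusted p = 0.00337), with 2 of the 3 LP arrays below the array median. It read 3757, 3929 and 3524 in AL, 36.8, 417 and 316 in ALP, 365, 28.8 and 173 in MaSC, 127, 121 and 276 in the LP arrays and 373, 72.1 and 617 in ML. Each AL array was above every virgin array, while the virgin replicates of Hmmr themselves differed widely. Prc1, which bundles the antiparallel microtubules of the midzone, read 6224, 5171 and 5623 in AL, 811, 1548 and 1217 in ALP and 1178, 1301 and 1691 in LP, a difference from LP of 2.04 (SE 0.42, adjusted p = 0.00208). Anln (anillin), a scaffold of the contractile ring, read 2193, 1636 and 2304 in AL and 1333, 521 and 1320.4 in ML, a difference of 1.06 (SE 0.47, adjusted p = 0.0897) that did not pass. Against LP, at 491, 675 and 806, Anln passed with 1.65 (SE 0.47, adjusted p = 0.0142), and that call was lost without AL replicate 3 (adjusted p = 0.0513) or LP replicate 1 (adjusted p = 0.0584). Against ALP it passed with 1.67 (SE 0.47, adjusted p = 0.0152) and was lost without AL replicate 3 (adjusted p = 0.0549) or ALP replicate 1 (adjusted p = 0.057). Nusap1, Tpx2, Ect2 and Racgap1, which act on spindle microtubules or on the furrow, differed from LP by 3.34, 2.61, 2.52 and 2.61.

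Of the 5 exceptions, Pttg1 stood farthest from the rest of the set. Securin blocks separase until anaphase. Its intensity was 5333, 4977 and 4798 in AL, 5382, 5434 and 6505 in ALP, 4853, 4184 and 4236 in MaSC, 5991, 6386 and 6235 in the LP arrays and 6518, 6249 and 6163 in ML. The gene was bright in every array, and each AL array lay below each array of ALP, LP and ML. Pttg1 was lower in AL than in LP, with a log2 difference of -0.30 (SE 0.08, adjusted p = 0.01), and lower than in ML, at -0.33 (SE 0.08, adjusted p = 0.00476), or 1.23- and 1.25-fold lower. The values for ALP and MaSC, -0.19 (adjusted p = 0.0882) and 0.19 (adjusted p = 0.0718), did not pass. Both other probe sets of Pttg1 also gave a negative difference between AL and LP, at -0.83 (adjusted p = 0.0537) and -0.47 (adjusted p = 0.0112) on the log2 scale. When all 3 were averaged, the difference from ML was -0.32 and no longer passed (adjusted p = 0.103). The brightest Pttg1 probe set belongs to a class whose probes can match more than 1 transcript. This also holds for the probe sets used for Bub1b, Kifc1, Aurkb, Cdca8, Plk4 and Prc1. Those used for Kif2c, Incenp, Cdc25c, Cdc20 and Foxm1 belong to another class with such probes.

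Aurka encodes the kinase of centrosome maturation and spindle assembly. It read 1244, 1244 and 1165 in AL, 415, 743 and 1004 in ALP, 608, 349 and 180.4 in MaSC, 168, 247 and 364 in the LP arrays and 1352, 2252 and 1901 in ML. The ML arrays were the highest of all, each above every AL array, and the LP arrays were among the lowest. AL was higher than LP by 2.30 (SE 0.42, adjusted p = 0.000823) and higher than MaSC by 1.85 (SE 0.42, adjusted p = 0.0024). Neither 0.85 (SE 0.42, adjusted p = 0.15) against ALP nor -0.56 (SE 0.42, adjusted p = 0.322) against ML passed. A second Aurka probe set was below the median of its array in all 15 arrays, and with both averaged the difference from LP was 0.70 and did not pass (adjusted p = 0.0901).

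Kif2c (MCAK), which depolymerises microtubules at centromeres, also had high values in ML. It read 769, 613 and 739 in AL, 121, 354 and 384 in ALP, 353, 132 and 64.1 in MaSC, 98.6, 119.5 and 144 in the LP arrays and 657, 437 and 688 in ML. AL and ML overlapped, and their difference was 0.27 (SE 0.52, adjusted p = 0.73). AL was higher than LP by 2.56 (SE 0.52, adjusted p = 0.00195) and higher than MaSC by 2.29 (SE 0.52, adjusted p = 0.00265), while 1.47 (SE 0.52, adjusted p = 0.0502) against ALP fell just short. The next brightest Kif2c probe set gave 2.43 against LP, 0.11 against ML and 1.56 against ALP on the log2 scale, close to the first. Its difference from ALP passed in a limma fit of all probe sets with 1 gene symbol (adjusted p = 0.00636). In that fit the first probe set also passed against ALP (adjusted p = 0.0469).

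**Figure D3:**
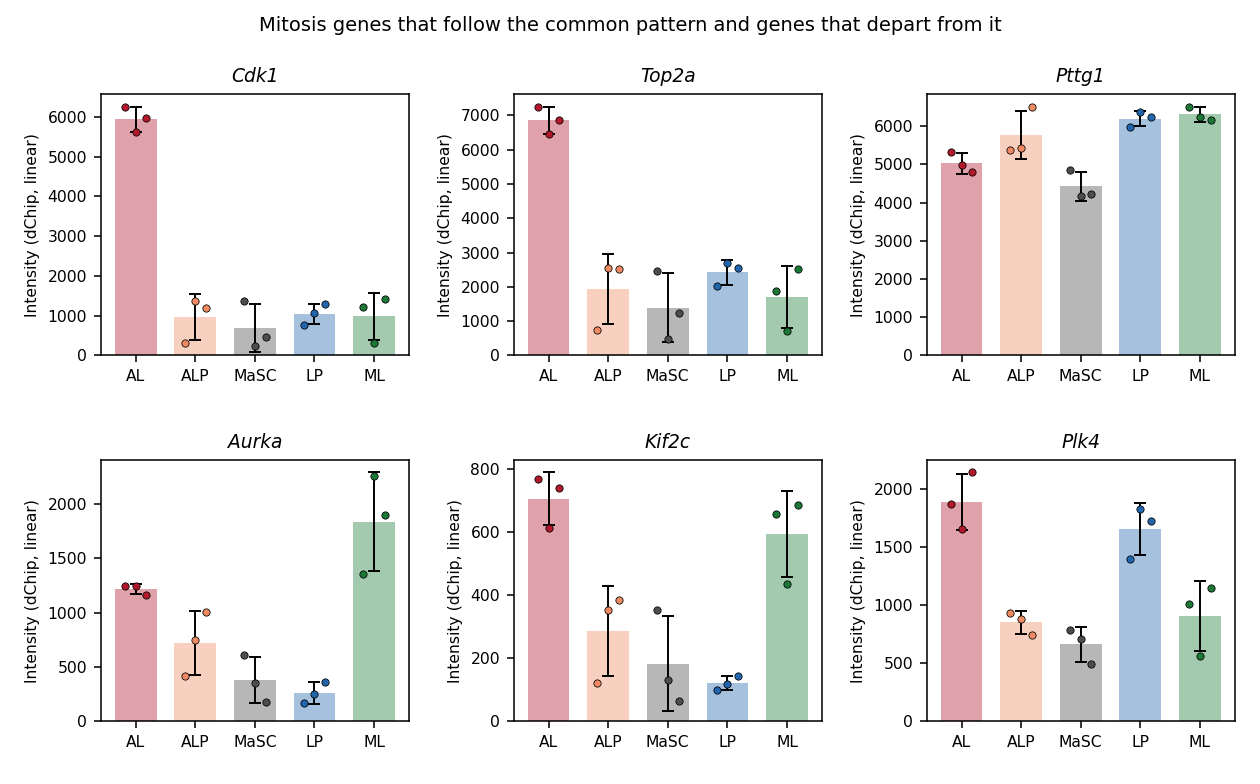
Intensity of 6 genes in AL, ALP, MaSC, LP and ML on a linear dChip scale from 0, with bars for the mean of 3 arrays, error bars of 1 SD and points for single arrays. Cdk1 and Top2a are highest in the 3 AL arrays, Pttg1 is high in all populations, Aurka is highest in ML, Kif2c is high in AL and ML, and Plk4 is high in AL and LP.

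Plk4, the kinase that starts centriole duplication, was the gene with high values in LP. It read 1865, 1654 and 2139 in AL, 931, 882 and 741 in ALP, 780.3, 709.7 and 492 in MaSC, 1398, 1824 and 1725 in the LP arrays and 1007, 564 and 1142 in ML. The LP arrays overlapped those of AL, with a difference of 0.19 (SE 0.25, adjusted p = 0.609), whereas AL was higher than ALP by 1.15 (SE 0.25, adjusted p = 0.00363) and higher than ML by 1.12 (SE 0.25, adjusted p = 0.00261). Here the probe sets differed in size of effect: both dimmer Plk4 probe sets gave a higher value in AL than in LP, at 1.33 (adjusted p = 0.000306) and 0.87 (adjusted p = 0.015). Kif15, a motor that can hold the spindle open when Kif11 fails, was below the array median in all 15 arrays. It read 22.6, 20.1 and 15.9 in AL and 4.14 to 18.6 in the virgin arrays, and passed in none of the 4 comparisons, with log2 differences of 0.87 to 1.24.

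A gene with several probe sets gave further readings of the same RNA on the same arrays. The genes were chosen with earlier results of these data known, so agreement between their probe sets is not independent support. For 34 of the genes there were 62 dimmer probe sets. The sign of the AL difference matched that of the probe set used in 58 of 62 against ALP, 57 against MaSC, 57 against LP and 56 against ML. The dimmer probe sets called higher in AL numbered 43, 47, 41 and 43 in the same order, and those called lower 0, 1, 1 and 2. Their median log2 differences, 2.08, 2.30, 1.99 and 2.15, were smaller than those of all 51 genes with the probe sets used. For Top2a and Kif18a the mean over all probe sets gave smaller differences. Top2a then differed by 0.30 from ML, 0.72 from MaSC and 0.43 from ALP. Kif18a differed by 0.27 from ML, 0.91 from MaSC and 1.12 from ALP, and none of these passed. Those means took in dim probe sets. The dimmer Top2a probe sets exceeded the array median in 0 and 3 of the 15 arrays, and the dimmer Kif18a probe set in 0.

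Between the virgin populations few of these genes passed the test. In ALP against LP, 0 of 51 were called higher and 1 lower, where 2.76% and 2.19% of all genes were. Between ALP and ML 0 were higher and 3 lower, against 16.2% and 10.7% of all genes, and between ALP and MaSC 3 were higher and 0 lower, against 15.9% and 11.9%. MaSC had 0 higher and 4 lower than LP (11.8% and 16.5% of all genes), and 1 higher and 8 lower than ML (19.9% and 23.3%). Between LP and ML 2 were higher and 4 lower, against 19.6% and 15.5% of all genes. In all 6 comparisons the share called in the set lay below that of all genes. Virgin replicates were more uneven in this set than over all genes, which makes a call harder to reach. The difference was positive for 13, 17, 44, 8, 7 and 31 of the 51 genes in the order just given. Median log2 differences were -0.31, -0.12, 0.48, -0.79, -0.62 and 0.20, so MaSC leaned lower than each other virgin population. Genes that move together are not separate readings of such a lean. A p that misses the threshold does not show equal levels: at an unadjusted p under 0.05 there were 2, 4, 5, 9, 13 and 6 genes in the order just given.

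The largest differences among virgin cells were those of Aurka and Kif2c. Both were lower in LP than in ML, with log2 differences of -2.86 (SE 0.42, adjusted p = 0.00014) for Aurka and -2.29 (SE 0.52, adjusted p = 0.00371) for Kif2c. Both were also lower in MaSC than in ML, at -2.41 (SE 0.42, adjusted p = 0.000381) and -2.02 (SE 0.52, adjusted p = 0.00621). In ALP, Aurka was lower than in ML, at -1.41 (SE 0.42, adjusted p = 0.023), a call that was lost without ALP replicate 1, ML replicate 2 or ML replicate 3 (adjusted p = 0.0614 to 0.101) and with the mean of both probe sets (adjusted p = 0.0996). The kinesins Kif18a, which limits chromosome movements at the metaphase plate, and Kif20a, which acts in cytokinesis, were highest among virgin cells in ML. Kif18a read 53.9, 74.6 and 73.8 in ALP, 82.8, 45.0 and 46.2 in MaSC, 49.1, 80.2 and 57.6 in the LP arrays and 122, 103 and 210.3 in ML, so each ML array was above all 9 other virgin arrays. Against ML its log2 difference was -1.05 in ALP, -1.31 in MaSC and -1.18 in LP. Kif20a read 42.3, 143 and 99.5 in ALP, 103, 64.7 and 71.3 in MaSC, 78.2, 82.9 and 109 in the LP arrays and 179, 146 and 256 in ML, with differences of -1.16, -1.27 and -1.08 in the same order. With the mean of all probe sets the Kif18a difference from ML was -0.85 in ALP (adjusted p = 0.168) and -0.63 in MaSC (adjusted p = 0.275), and neither passed. That mean took in a dimmer Kif18a probe set that exceeded the array median in 0 of the 15 arrays. The Kif18a call was lost in ALP without ALP replicate 1 or ML replicate 3 and in LP without ML replicate 3 (adjusted p = 0.051 to 0.109). The Kif20a call was lost in ALP without ALP replicate 1 or ML replicate 1 or 3, in LP without LP replicate 1 or 2 or ML replicate 1 or 3, and in MaSC without MaSC replicate 2 or ML replicate 3 (adjusted p = 0.0531 to 0.147). These 2 kinesins were described here after their values were seen.

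Plk4 was lower in ALP than in LP, with a log2 difference of -0.95 (SE 0.25, adjusted p = 0.0451), and lower in MaSC than in LP, at -1.34 (SE 0.25, adjusted p = 0.00126). It was higher in LP than in ML, at 0.92 (SE 0.25, adjusted p = 0.0108). The ALP call was lost without any single one of the LP arrays or of ALP replicates 2 and 3 (adjusted p = 0.079 to 0.16), and the last was lost without ML replicate 2 (adjusted p = 0.0517). Smc4 was lower in MaSC than in LP, with a log2 difference of -0.63. It was higher in ALP than in MaSC by 0.47, a call lost without ALP replicate 2 or MaSC replicate 2, and higher in LP than in ML by 0.35, a call lost without any LP array or ML replicate 1 or 2 (adjusted p = 0.0549 to 0.163 over both). The last call also ended after quantile normalisation (adjusted p = 0.0719) and with arrays centred on their medians (adjusted p = 0.201). Pttg1 was higher in ALP than in MaSC by 0.38, and in MaSC it was lower than in LP and ML, with log2 differences of -0.49 and -0.52. Anln read 449, 1114 and 509.6 in ALP, 509.9, 172 and 182 in MaSC, 491, 675 and 806 in the LP arrays and 1333, 521 and 1320.4 in ML. It was called between MaSC and each of the other virgin populations, with log2 differences of 1.33 for ALP against MaSC, -1.36 for MaSC against LP and -1.95 for MaSC against ML. The call with ALP was lost without ALP replicate 2 or MaSC replicate 2 or 3, and the call with LP without MaSC replicate 2 or 3 or any LP array (adjusted p = 0.0517 to 0.192). Both calls also ended with the mean of all probe sets, at 0.75 for ALP against MaSC (adjusted p = 0.159) and -0.75 for MaSC against LP (adjusted p = 0.169). That mean took in a dimmer Anln probe set that exceeded the array median in 2 of the 15 arrays. The other calls were between MaSC and ML: Spc25 with -1.54 (SE 0.50, adjusted p = 0.0214), Mad2l1 with -0.83 (SE 0.32, adjusted p = 0.048), and Foxm1, the only gene higher in MaSC, with 0.95 (SE 0.36, adjusted p = 0.0481). For each of these 3 genes the arrays of MaSC and ML overlapped. Spc25 and Mad2l1 were lost without any one of MaSC replicates 2 and 3 and ML replicates 1 and 3, and Foxm1 without MaSC replicate 1 or 3 or ML replicate 1 or 2 (adjusted p = 0.0596 to 0.228). All 3 were lost in a fit of the 6 arrays compared (adjusted p = 0.0643 to 0.133), Mad2l1 also without an intensity trend (adjusted p = 0.0619), and Foxm1 without the trend, after quantile normalisation or centring, with 16 added to each intensity and with the mean of all probe sets (adjusted p = 0.0516 to 0.151).

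The replicates of a virgin population differed from each other in most of these genes at once. Over the 51 genes the median intensity was 2314, 2101 and 2339 in the AL arrays, 100.5, 429 and 384.5 in ALP, 353, 93.2 and 182 in MaSC, 241, 282 and 401 in the LP arrays, and 353, 126 and 539 in ML. ALP replicate 1 was the lowest of its population for 49 genes, against 44.6% of all genes. ML replicate 2 was the lowest for 48 genes (34.6% of all genes) and MaSC replicate 2 for 42 (34.8%), while LP replicate 1 was the lowest for 37 (41.5%) and AL replicate 2 for 37 (28.1%). The median coefficient of variation over the set was 10.9% in AL, 53.2% in ALP, 56.8% in MaSC, 22.7% in LP and 49.2% in ML, where all genes had 12.5%, 20.6%, 19.2%, 12.9% and 14.5%. AL replicates were thus as even as those of other genes, and virgin replicates of ALP, MaSC and ML were more than 2 times as uneven. Of the 51 genes, 50 exceeded the array median in each AL array, and 19, 34 and 32 did so in the ALP arrays, 32, 15 and 29 in MaSC, 29, 30 and 36 in the LP arrays and 35, 25 and 43 in ML. Aurka ran the other way in ML, with its highest ML value in replicate 2.

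**Figure D4:**
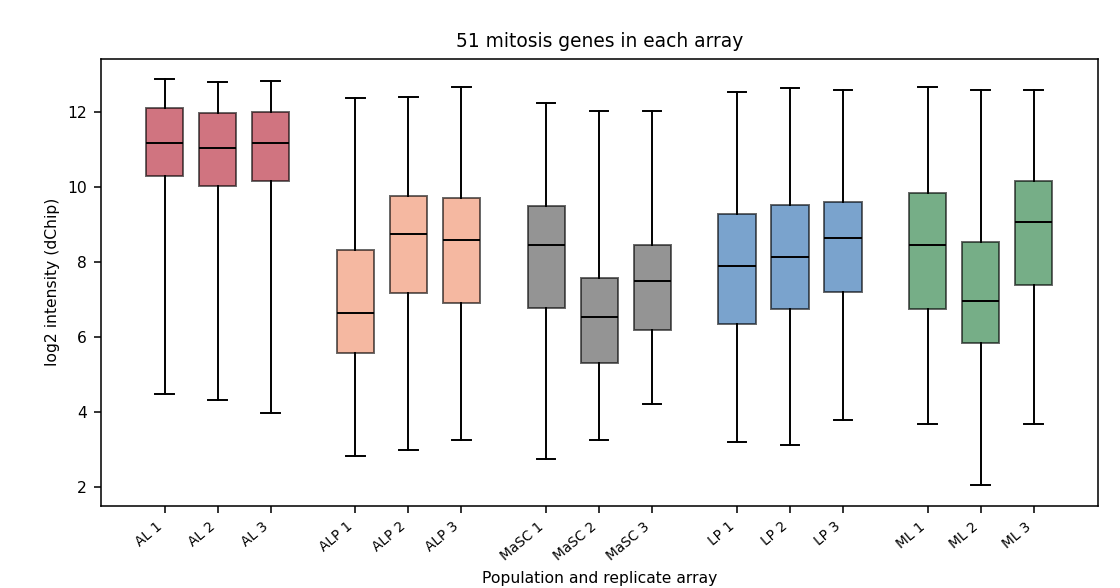
Log2 intensity of the 51 genes in each array, with populations from left to right AL, ALP, MaSC, LP and ML and replicates 1 to 3 in each, boxes for the quartiles, lines for the median and whiskers for the lowest and highest gene. The 3 AL boxes lie above all virgin boxes, and ALP replicate 1, MaSC replicate 2 and ML replicate 2 lie below the other arrays of their populations.

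Several counts between virgin populations moved when 1 array was left out of the fit. The share of all genes called in the same fits is not given here, so these moves may not be particular to this set. Without MaSC replicate 1, 13 genes were called lower in MaSC than in LP, 15 lower in MaSC than in ML and 9 higher in ALP than in MaSC, and without ALP replicate 1 there were 7 higher in ALP than in MaSC. Without ALP replicate 2, or without MaSC replicate 2, 1 gene was higher in ALP than in MaSC. For ALP against ML no gene was called without ALP replicate 1 or without ML replicate 3. For ALP against LP, 2 genes were called without ALP replicate 1 and 0 without any other single array of ALP or LP. With all arrays centred on their medians, 0 genes were called between ALP and MaSC.

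The genes also moved together along the virgin arrays. Each gene was set against the median log2 intensity of the other members of the set, over the 12 virgin arrays, of which those of MaSC, LP and ML came from shared suspensions. Pearson's r had a median of 0.853, with 33 of 51 genes above 0.8. Cdk1 was closest to the others, at 0.975, followed by Ncapg, Ube2c and Cdc20 at 0.971, 0.965 and 0.964. At the other end were Foxm1 at 0.07, Aurka at 0.23, Kif15 at 0.34, Plk4 at 0.40, Mybl2 at 0.41, Kif2c at 0.46 and Pttg1 at 0.49. Over all 15 arrays, where the step between AL and virgin cells enters, the median was 0.959, and 42 genes exceeded 0.9 while Pttg1 was at -0.02. These values are given as a description, with no test. Genes outside the set were not compared with this median, so the values are not shown to be particular to the set.

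Promoter sequence was looked at because genes of G2 and M phase often carry a cell cycle genes homology region (CHR) together with CCAAT boxes. Windows of 300 bases, 250 before and 50 after the start, were taken from RefSeq annotation of GRCm38.p6, which gave 47 windows for 43 of the 52 listed genes. The CHR was searched as TTTGAA or TTCGAA and the CCAAT box as CCAAT, each on both strands. A CHR was found in 32 of 47 windows (68.1%), against 17.6% of 21263 windows of 17492 protein-coding genes, and a CCAAT box in 33 (70.2%), against 38.2%. Both occurred in 28 windows (59.6%), against 7.11% of all windows, and 20 windows (42.6%) had at least 2 CCAAT boxes, against 12.8%. These are matches of letters, not measured binding sites. The windows of 4 genes are shown, 5′ to 3′ on the strand of the gene, with matches on either strand in capitals: Ccnb2 (chr9:70421505-70421804, minus strand) and Cdc20 (chr4:118437294-118437593, minus strand) for the common pattern, and Aurka (chr2:172370521-172370820, minus strand) and Pttg1 (chr11:43425932-43426231, minus strand) for the exceptions.
Ccnb2: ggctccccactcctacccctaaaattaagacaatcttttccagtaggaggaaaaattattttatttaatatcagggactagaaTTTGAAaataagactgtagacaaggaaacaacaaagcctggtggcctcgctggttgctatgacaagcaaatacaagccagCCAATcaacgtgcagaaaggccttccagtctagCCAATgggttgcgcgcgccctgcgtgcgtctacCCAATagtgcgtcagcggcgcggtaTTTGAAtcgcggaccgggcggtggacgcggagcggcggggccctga
Cdc20: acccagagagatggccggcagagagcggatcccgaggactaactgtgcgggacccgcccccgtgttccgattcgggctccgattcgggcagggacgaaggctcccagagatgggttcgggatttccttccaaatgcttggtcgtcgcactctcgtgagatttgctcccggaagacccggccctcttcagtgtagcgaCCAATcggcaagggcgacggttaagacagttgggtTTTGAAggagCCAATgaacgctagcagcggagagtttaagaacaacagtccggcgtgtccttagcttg
Aurka: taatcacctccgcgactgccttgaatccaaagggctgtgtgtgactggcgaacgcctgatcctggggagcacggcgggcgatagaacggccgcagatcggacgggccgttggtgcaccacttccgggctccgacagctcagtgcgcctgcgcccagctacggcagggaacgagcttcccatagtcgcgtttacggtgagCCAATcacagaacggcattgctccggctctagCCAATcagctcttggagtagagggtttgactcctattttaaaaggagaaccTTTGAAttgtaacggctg
Pttg1: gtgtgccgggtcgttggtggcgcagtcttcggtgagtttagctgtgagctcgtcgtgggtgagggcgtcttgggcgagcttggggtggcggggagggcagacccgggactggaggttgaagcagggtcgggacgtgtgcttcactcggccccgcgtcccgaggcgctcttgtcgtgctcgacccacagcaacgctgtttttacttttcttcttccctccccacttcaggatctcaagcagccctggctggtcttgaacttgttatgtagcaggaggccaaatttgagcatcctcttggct
Ccnb2 had 2 CHR and 3 CCAAT matches, and Cdc20 and Aurka had 1 CHR and 2 CCAAT matches each. The windows of 10 genes held neither motif: those of Pttg1 and Plk4, and those of Birc5, Kif18a, Mad2l1, Melk, Mybl2, Ncaph, Nuf2 and Nusap1, which rose in AL in all 4 comparisons. Kif15 and Kif2c, also exceptions, had a CHR and no CCAAT box.

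Genes of related processes were read from lists that are separate from the 52. Among all genes, 12.8% were called higher in AL than in ALP, 23% higher than in MaSC, 15.2% higher than in LP and 20.9% higher than in ML. Of 70 other mitosis genes, 59 rose and 1 fell in AL relative to ALP, 60 and 3 relative to MaSC, 55 and 2 relative to LP, and 54 and 3 relative to ML, with median log2 differences of 1.99, 2.21, 1.87 and 1.90. Among these, the 4 with the largest moderated t against LP were Cenpn at 2.62 (SE 0.23, adjusted p = 2.48e-06) and Cdca2 at 3.37 (SE 0.43, adjusted p = 4.97e-05), which act at centromeres and on mitotic chromatin, and Gtse1 at 3.13 (SE 0.37, adjusted p = 2.90e-05) and Nek2 at 3.72 (SE 0.46, adjusted p = 4.26e-05), which act on microtubules and centrosomes. Of 23 measured genes of S phase, 22, 21, 22 and 23 rose in the same order and none fell, with smaller median differences of 1.52, 1.45, 1.42 and 1.73. Examples against LP were Gins1, a subunit of the replicative helicase, at 2.82 (SE 0.32, adjusted p = 1.80e-05), the clamp loader subunit Rfc3 at 1.55 (SE 0.16, adjusted p = 9.81e-06), the ribonucleotide reductase subunit Rrm1 at 1.58 (SE 0.18, adjusted p = 2.39e-05) and the primase Prim1 at 1.84 (SE 0.22, adjusted p = 2.91e-05).

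Subunits and partners of the anaphase-promoting complex changed by far smaller amounts, although in each comparison the share called higher was above that of all genes. Of 14 genes, 5 rose and 0 fell relative to ALP, 7 and 1 relative to MaSC, 6 and 0 relative to LP, and 5 and 0 relative to ML, with median log2 differences of 0.29, 0.31, 0.13 and 0.11. The largest moderated t against LP belonged to the activator Fzr1 (Cdh1) at 1.01 (SE 0.18, adjusted p = 0.000689), followed by Cdc26 at 0.60 (SE 0.11, adjusted p = 0.000831), Anapc1 at 0.45 (SE 0.10, adjusted p = 0.00453) and the ubiquitin-conjugating enzyme Ube2s at 0.39 (SE 0.10, adjusted p = 0.00924). The 18 genes of the E2F, Rb and DREAM families, which repress or activate cell cycle genes, were also mixed, with 4 higher and 0 lower than in ALP, 7 and 1 relative to MaSC, 6 and 1 relative to LP, and 8 and 0 relative to ML. Rbl1 (p107) at 1.33 (SE 0.26, adjusted p = 0.00143), E2f1 at 2.18 (SE 0.53, adjusted p = 0.00567) and Tfdp2 at 0.58 (SE 0.15, adjusted p = 0.00862) were higher in AL than in LP, and E2f6 was lower, at -0.76 (SE 0.19, adjusted p = 0.00652).

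Markers of other cell types also differed between AL and the virgin populations. Of 6 basal markers, 5 rose in AL relative to LP and 5 relative to ML, with a summed intensity of 16690 to 20290 in AL, 6095 to 26670 in ALP, 57240 to 62000 in MaSC, 1944 to 2986 in the LP arrays and 1050 to 3105 in ML. MaSC had the highest basal sums. Of 8 immune markers, 2 rose relative to LP, 3 relative to ML and 0 relative to ALP and MaSC, with sums of 3417 to 5010 in AL, 2189 to 51510 in ALP, 1332 to 2967 in MaSC, 445 to 1084 in the LP arrays and 410.0 to 589 in ML. The highest immune sum was that of ALP replicate 3. Endothelial markers summed to 1510 to 1697 in AL, 2155 to 14320 in ALP, 128 to 185 in MaSC, 578 to 1106 in the LP arrays and 144 to 189 in ML. Of these 5 markers, 0 rose and 4 fell in AL relative to ALP, and 4, 1 and 3 rose relative to MaSC, LP and ML. Of 6 fibroblast markers, 0 rose and 2 fell relative to ALP, 4 rose relative to MaSC, 0 relative to LP and 5 relative to ML, with sums of 25820 to 34900 in AL, 35880 to 66270 in ALP, 5403 to 7303 in MaSC, 25200 to 39610 in the LP arrays and 1629 to 6106 in ML. In ALP the highest sum of each of these 4 lists was that of replicate 3. None of these markers was listed at 0 in any array. The part of such cells in the AL differences was not tested, and levels in virgin arrays do not show it.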

How the data were processed

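RNA of the sorted cells was amplified with the NuGEN Ovation V2 system and hybridised to Affymetrix Mouse Genome 430 2.0 arrays, which give intensities and no read depth, so precision is limited by the 3 arrays of each population. The deposited values were linear intensities normalised with dChip by the authors, 1 value for each probe set on an array. For dChip, the version and the expression model used were not given in the sources used here. Of 45101 probe sets, 34945 carried 1 gene symbol, 932 several and 9160 none, and the last 2 kinds were left out. Intensities under 1 were set to 1 (2889 values, of which 659 were 0) before taking log2. Where a gene had several probe sets, the brightest on average (log2, all 15 arrays) represented it, and dim genes were kept.

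The 18193 genes were tested with limma 3.58.1 in R 4.3.3 (lmFit with a mean for every population, eBayes with an intensity trend). Tests were two-sided, p-values were adjusted after Benjamini and Hochberg over all genes within each of 10 comparisons, and a gene was called at an adjusted p under 0.05. Differences are on the log2 scale, first population minus second, SE is the standard error of the fit and SD is between arrays. Alternatives were quantile normalisation, centring of arrays, another offset, a filter on dim genes, no intensity trend, fits of 6 arrays, the mean of all probe sets, a replicate block and leaving out single arrays. The members and all gene lists were chosen with earlier results of these data known. Within each of 10 role groups, genes described in full were the 2 with the highest mean log2 intensity and those with the largest and smallest difference between AL and LP, 29 in all, and the others are given by their differences. The probe annotation came from the platform table, and promoter windows from RefSeq.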

Additional observations from a re-analysis of the deposited data

How the results depend on the processing

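In the 4 comparisons of AL with virgin cells the number of genes called stayed within 43 to 50 of 51 under all alternatives run. Counts between virgin populations were small and moved more. For ALP against LP, with 1 gene called, there were 2 after quantile normalisation, with arrays centred on their medians and with only genes above the array median in at least 3 arrays, and 0 without an intensity trend, in a fit of the 6 arrays compared and with a replicate block. For ALP against ML, with 3 called, there were 5 after quantile normalisation and 1 in a fit of 6 arrays or with the mean of all probe sets. For ALP against MaSC, with 3 called, there was 1 after quantile normalisation and 0 with centred arrays or in a fit of 6 arrays. Leaving out single arrays gave 43 to 48 for AL against ALP (43 without ALP replicate 1), 0 to 2 for ALP against LP, 0 to 4 for ALP against ML, 1 to 9 for ALP against MaSC, 3 to 13 for MaSC against LP (4 with all arrays), 6 to 15 for MaSC against ML (9) and 4 to 5 for LP against ML (6). The counts of 9, 13 and 15 came without MaSC replicate 1. The cause of these moves was not tested, and whether counts over all genes moved alike is not given here.

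For single genes, 137 calls were recomputed under 1937 alternatives. The call was kept in 1820, lost in 117 and turned in direction in 0. Of the lost calls, 28 of 1554 concerned AL and 89 of 383 the virgin populations. Centring on array medians moved the median of all genes by -0.20 to -0.21 in comparisons of ALP with LP, MaSC and ML and by -0.12 to -0.13 in those of AL with LP, MaSC and ML. The share of higher genes among all genes called was then 37.8% for ALP against ML (60.2% as deposited, 40.6% after quantile normalisation), 40.1% for ALP against MaSC (57.3% and 46.8%) and 42.9% for AL against ML (53.2%), and after quantile normalisation 55.4% for AL against ALP (45%).

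No label ties replicate numbers to the 3 suspensions of MaSC, LP and ML, and pairing was not shown: the deviations of same-numbered arrays of MaSC, LP and ML correlated by -0.005 to 0.11, with 1 of 9 pairs above 0.1. With a replicate block, 47, 49, 48 and 47 genes were called in AL against ALP, MaSC, LP and ML, and 0 to 8 between virgin populations. Calls lost with the block were Plk4 for ALP against LP (adjusted p = 0.0726), Anln for ALP against MaSC (0.065) and for MaSC against LP (0.0601, and 0.0508 with wild-type arrays only), Mad2l1 for MaSC against ML (0.0585 and 0.069), Smc4 for LP against ML (0.0589 and 0.0741) and Kif20a for LP against ML (0.0503). Small differences of dim genes such as Kif15 are not resolved by 3 arrays.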
